A study of Mus musculus with 2 samples.

Results

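The genes described here are 9 neuronal RNA-binding genes, Elavl2, Elavl3, Elavl4, Nova1, Nova2, Srrm3, Srrm4, Celf3 and Rbfox2, and Rest, which encodes a repressor of neuronal genes. They were chosen by name, with earlier results of these data known, and all 10 were found among the 37681 gene identifiers of the files. RNA came from the epithelium lining the stomach corpus, where acid is made, in Hdc-CFP transgenic C57BL/6 mice. In these mice a cyan fluorescent protein reports Hdc, the gene for the histamine-making enzyme. The first group was Hdc-CFP+ cells isolated by sorting (the sorted library), and the second was corpus epithelial cells depleted of Hdc-CFP cells (the depleted library), so mice of the same strain and transgene stand behind both groups. The cell type label names the stomach for the sorted library and the stomach corpus for the depleted library. Each group was 1 library, and the sources used here give neither the number or age of the mice nor how the transgene was built. In the corpus Hdc marks the histamine cells of the endocrine lineage, called enterochromaffin-like cells. The question put to the 10 genes was how far such endocrine cells carry a neuron-type splicing programme.

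Neurons splice many transcripts differently from other cells, and a small set of RNA-binding proteins does much of this work. The neuronal ELAV proteins (Elavl2, Elavl3, Elavl4) bind U-rich RNA and act on splicing and on transcript stability, NOVA1 and NOVA2 bind YCAY clusters, RBFOX2 binds UGCAUG, CELF3 is a brain-enriched member of the CELF family, and SRRM3 and SRRM4 promote inclusion of microexons, exons of a few codons. In most other cells the zinc finger protein REST binds RE1 elements and represses neuronal genes, Srrm4 among them. In neurons SRRM4 in turn changes splicing of Rest transcripts. Pancreatic islet cells are known to share part of this programme.

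The RNA on which SRRM3 and SRRM4 act can be shown with annotated short exons of 6 genes that are known for neuronal microexons. They are printed because gene counts such as these cannot show whether an exon was included, so every result below is on the level of a gene and not on its splicing. In GENCODE M21 (GRCm38), 17 of 19 listed genes spliced by SRRM3, SRRM4 or NOVA proteins held at least 1 internal exon of at most 27 bases in a protein-coding transcript. Of these 27 exons, 24 had a length divisible by 3. The exon of Kdm1a has 12 bases, that of Src 18, those of Vti1a, Zfyve27 and Mef2d 21 each and that of Cpeb4 24. They read, in the direction of the gene:
Kdm1a, chr4:136563438-136563449, - strand: gacactgtcaag
Src, chr2:157458843-157458860, + strand: gaggaaggtggatgtcag
Vti1a, chr19:55387189-55387209, + strand: ttgataaaattacgtgaagag
Zfyve27, chr19:42185620-42185640, + strand: gagacccacctggtggtgctg
Mef2d, chr3:88161781-88161801, + strand: actgaggaccatttagatctg
Cpeb4, chr11:31918801-31918824, + strand: caaggacttatgggcgaaggagag

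Gene counts came to 10736538 for sorted cells and to 50928524 for depleted cells, 4.74 times more. Levels are normalised CPM, counts relative to a library total that was scaled between the libraries, and brackets hold exact 95% intervals for counting error. With 1 library per group there was no replicate check and no p-value, so every difference is between these 2 libraries. In bulk RNA, fewer cells of a type and less RNA per cell cannot be told apart. The markers matched the label of the sorted library: Hdc stood at 8748 CPM in sorted cells, against 21.2 CPM in depleted cells, and all 8 listed endocrine genes were higher. The sorted library also held genes of other cells. The 8 listed genes of corpus epithelium summed to 20948 CPM in sorted cells, against 218737 CPM in depleted cells, the 8 macrophage genes to 10.8 CPM (sorted) and 2803 CPM (depleted), and the 10 pancreatic acinar genes to 2309 CPM (sorted) and 5.55 CPM (depleted).

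A gene was measured when it had at least 10 counts in at least 1 library, and it was called when its ratio was at least 2-fold with an interval clear of 1. By this rule 21.9% of the 16682 measured genes were higher in the sorted library and 21.9% were lower. Of the 10 genes, 8 were called higher (Elavl3, Elavl4, Nova1, Nova2, Srrm3, Srrm4, Celf3 and Rbfox2), Rest was called lower, and Elavl2 was not measured. Under a stricter rule of 4-fold with an interval beyond 2-fold, which 13.6% of measured genes passed as higher and 11.3% as lower, the numbers were again 8 and 1. Of the 8 higher genes, Elavl3, Elavl4, Srrm3 and Srrm4 were measured through the sorted library alone. A gene that enters in this way has a ratio of at least 4.10 by construction, so its call follows from the filter. Nova1, Nova2, Celf3, Rbfox2 and Rest had at least 10 counts in both libraries.

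**Figure D1:**
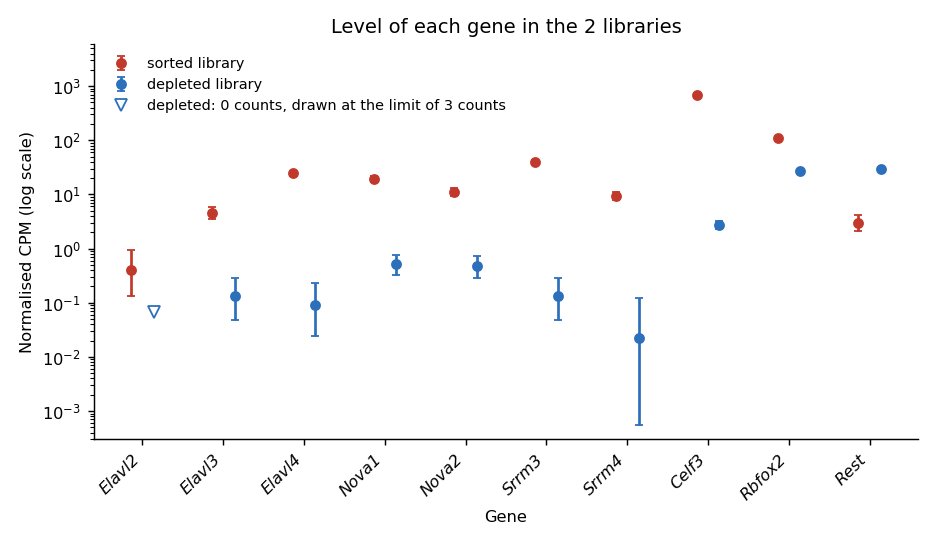
Normalised CPM (log axis) of each gene in the sorted library (red, left of each pair) and the depleted library (blue), with 95% Poisson intervals. Celf3 stands highest in the sorted library at 673 CPM, and Rest is the one gene of the 10 whose depleted value lies above its sorted value.

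Among the neuronal ELAV genes, Elavl4 was the most abundant. Elavl4 (ENSMUSG00000028546, chromosome 4), whose protein HuD stabilises neuronal mRNAs, had 300 counts (24.6 CPM) in the sorted library and 4 counts (0.0891 CPM) in the depleted library, 276-fold higher [107 to 1021]. Elavl3 (ENSMUSG00000003410, chromosome 9), which encodes HuC, had 56 counts (4.60 CPM) in the sorted library and 6 counts (0.134 CPM) in the depleted library, 34.4-fold higher [14.9 to 97.7]. Elavl2 (ENSMUSG00000008489, chromosome 4), which encodes HuB, had 5 counts (0.411 CPM) in the sorted library and 0 in the depleted library, where 0 allows up to 3 counts or 0.0668 CPM. The CPM intervals of Elavl3 and Elavl4 did not overlap between libraries, but both genes were measured through the sorted library alone. This separation thus follows in part from the filter, and its share among all genes was not counted. Set against that floor the ratio of Elavl2 was 6.14, and the gene was not measured. The lower limit of its interval, 3.38, came from the split of 5 against 0 counts. The widely expressed relative Elavl1, named for this comparison after its value was seen, differed little, at 61.5 CPM in sorted cells, against 64.3 CPM in depleted cells (ratio 0.957 [0.882 to 1.04]).

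Levels of different genes can be compared only per length, for which counts per kilobase of exon were scaled to a common total within each library (TPM). The neuronal ELAV genes summed to 19.8 TPM against 22.2 TPM of Elavl1 in the sorted library, so they made up 47.1% of the family's TPM there. In the depleted library they summed to 0.0713 TPM against 12.3 TPM of Elavl1, a share of 0.576%. Elavl1 itself was not called, and the difference in share lay with the neuronal genes.

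Nova1 and Nova2, the antigens of a paraneoplastic movement disorder, were both higher. Nova1 (ENSMUSG00000021047, chromosome 12) had 232 counts (19.05 CPM) in the sorted library and 23 counts (0.512 CPM) in the depleted library, 37.2-fold higher [24.2 to 59.8]. Nova2 (ENSMUSG00000030411, chromosome 7) had 134 counts (11.0 CPM) in the sorted library and 21 counts (0.468 CPM) in the depleted library, 23.5-fold higher [14.8 to 39.2]. The 2 ratio intervals overlap, so the genes were not distinguishable in their ratio. In M21, 2652 exonic bases of Nova2 lie opposite those of a non-coding gene, Gm26821, which is not among the gene identifiers of the files. Of the 50-base words of Nova2 transcripts, 30.8% also occur in transcripts of other genes, most often those of Gm26821. The strand setting of the counting is not given, so reads of that gene could have been counted for Nova2.

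Srrm3 and Srrm4 were both higher, with few counts in the depleted library. Srrm3 (ENSMUSG00000039860, chromosome 5) had 488 counts (40.1 CPM) in the sorted library and 6 counts (0.134 CPM) in the depleted library, 299.8-fold higher [137 to 821]. Srrm4 (ENSMUSG00000063919, chromosome 5) had 115 counts (9.44 CPM) in the sorted library and 1 count (0.0223 CPM) in the depleted library, for a ratio of 424 [74.6 to 16886]. The ratio of Srrm4 rests on 1 count in the depleted library. Per length, Srrm3 was the more abundant of the pair in the sorted library, at 23.4 TPM [21.4 to 25.6] against 4.07 TPM [3.36 to 4.89] of Srrm4, or 85.2% of their sum. Their annotated antisense genes were near the limit, with 3 counts (sorted) and 0 (depleted) for Srrm3os and 6 (sorted) and 0 (depleted) for Srrm4os.

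Celf3 (ENSMUSG00000028137, chromosome 3) was by far the most abundant of the 10 in the sorted library. It had 8199 counts (673 CPM) in the sorted library and 122 counts (2.72 CPM) in the depleted library, 248-fold higher [207 to 299], and 154 measured genes had a larger ratio. By TPM, Celf3 ranked 148 among 15062 protein-coding genes with a count in the sorted library and 11365 among 15728 in the depleted library. Celf3 shares 74 exonic bases with the opposite-strand gene Riiad1, which itself had 570 counts in sorted cells, against 9 in depleted cells. Only 0.437% of the 50-base words of Celf3 occur in transcripts of other genes, most often those of Riiad1. In the CELF family, Celf3, Celf4, Celf5 and Celf6 made up 82.3% of the TPM in the sorted library, with Celf1 and Celf2 as the rest, and 2.68% in the depleted library. Celf2 is listed further below among the regulators enriched in neurons, so these shares depend on where it is placed. It had 6.93 TPM (sorted) and 2.55 TPM (depleted), where Celf3 to Celf6 summed to 511 TPM (sorted) and 1.38 TPM (depleted).

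**Figure D2:**
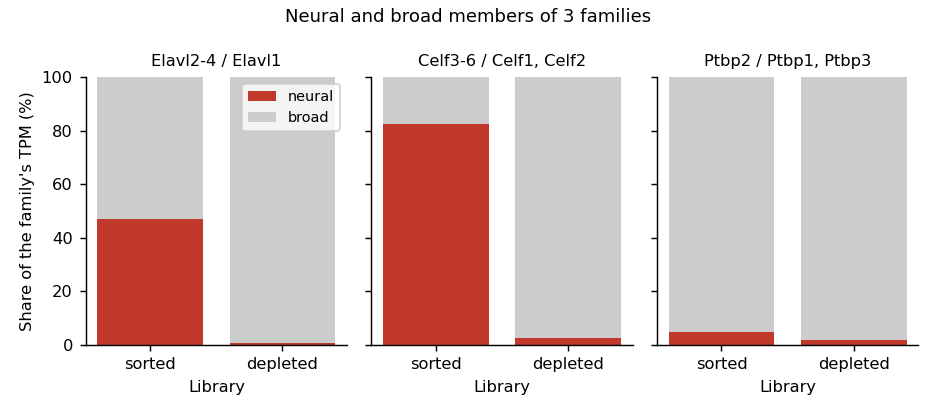
Share of a family's TPM (%) held by its neural genes (red) and its broadly expressed genes (grey), by library. Celf2 is drawn with Celf1 as broad here, although it is listed in the text among the regulators enriched in neurons. In the sorted library the neural share is 47.1% of the ELAV, 82.3% of the CELF and 4.61% of the PTBP family; in the depleted library it is 0.576% of the ELAV, 2.68% of the CELF and 1.96% of the PTBP family.

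Rbfox2 (ENSMUSG00000033565, chromosome 15), which acts in many tissues outside the brain, differed least among the higher genes. It had 1341 counts (110 CPM) in the sorted library and 1199 counts (26.7 CPM) in the depleted library, 4.12-fold higher [3.81 to 4.46]. It was thus present in both libraries, and its ratio interval lies below those of the other 7 higher genes.

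Rest (ENSMUSG00000029249, chromosome 5) went the other way. It had 36 counts (2.96 CPM) in the sorted library and 1300 counts (29.0 CPM) in the depleted library, 9.80-fold lower [7.04 to 14.1]. Its level in the sorted library was 10.2% of that in the depleted library. The same percentage was 17.5% for Atp4a of parietal cells, 25.1% for Pgc of chief cells, 22.6% for Muc6 of neck cells and 2.29% for Gkn1 of surface mucous cells, and from 0.0753% (Csf1r) to 2.88% (Cd68) for the 8 macrophage genes. Cblif, also of chief cells, kept 57.4% and was the 1 gene of the 8 listed for corpus epithelium that was not called lower. The value of Rest lies within the range of these epithelial genes, whose RNA remained in the sorted library, and their part in the 36 counts was not tested. Atp4a, Muc6, Cblif and Cd68 were named after their values were seen.

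**Figure D3:**
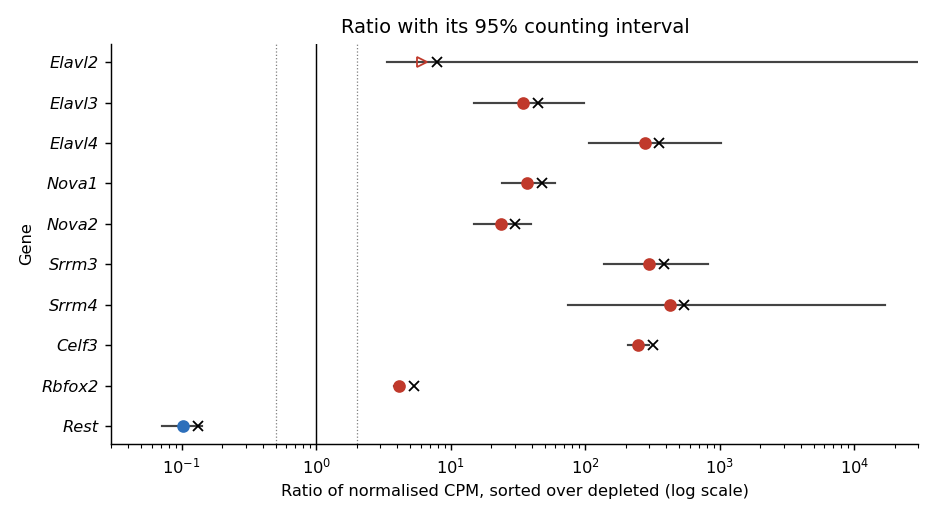
Ratio of normalised CPM, sorted over depleted (log axis), with 95% counting intervals as lines. Circles are ratios (red above 1, blue below), and the open triangle is the ratio of Elavl2 with its count of 0 set to 3 counts. Crosses are ratios scaled by library totals alone, and dotted lines mark 2-fold. Rest lies at 0.102 and Srrm4 at 424.

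The order of the genes by TPM in the sorted library was Celf3 (461), Rbfox2 (50.7), Srrm3 (23.4), Elavl4 (17.1), Nova1 (8.16), Nova2 (4.92), Srrm4 (4.07), Elavl3 (2.50), Rest (1.53) and Elavl2 (0.185). Of the neighbours in this order, the Poisson intervals of Nova2 and Srrm4 overlap, as do those of Elavl3 and Rest, and the other neighbours are apart. In the depleted library Rest came first at 7.96 TPM [7.53 to 8.40], then Rbfox2 at 6.51 TPM [6.15 to 6.89] and Celf3 at 0.986 TPM. The other 7 genes lay between 0.116 TPM (Nova1) and 0 (Elavl2). The order was thus led by the repressor in the depleted library and by Celf3 in the sorted one. With the longest transcript as length, Rest and Rbfox2 lay closer together in the depleted library, at 7.18 TPM and 6.71 TPM.

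The higher genes fell into different ranges of what was left in the depleted library. For Elavl4, Srrm3, Srrm4 and Celf3 the depleted level was 0.362%, 0.334%, 0.236% and 0.404% of the sorted level. The 8 listed endocrine genes spanned a wider range, from 0.242% (Hdc) to 18.8% (Neurod1), with 0.256% for Chga, 0.345% for Slc18a2 and 0.390% for Chgb. Acinar genes had low values too, such as 0.188% for Cel and 0.343% for Prss2. Elavl3, Nova1 and Nova2 kept more, at 2.91%, 2.69% and 4.25%, and Rbfox2 kept 24.3%. The intervals of the ratios of Nova1 and Nova2 lie wholly below those of Elavl4, Srrm3, Srrm4 and Celf3. By distance in log2 CPM over the 2 libraries, the 2 measured protein-coding genes closest to Srrm4, the gene with the largest ratio, were the gut hormone gene Pyy (118 counts in the sorted library) and the collagen gene Col25a1 (110 counts in the sorted library), each with 1 count in the depleted library. With 2 libraries, this likeness rests on 2 values a gene.

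Neurons and glia of the gut wall could also bring neuronal RNA into a sample, and most of their defining genes were at or near 0. Of 12 listed genes of enteric neurons 6 had 0 counts in both libraries, among them Hand2, Prph, Nefl, Slc5a7 and Vip. Counts were also low for others of the list, with Phox2a 0 in sorted cells and 3 in depleted cells, Chat 1 (sorted) and 3 (depleted) and Nos1 3 (sorted) and 7 (depleted). The 3 measured neuron genes were higher: Ret (75.2 CPM in sorted cells, against 1.002 CPM in depleted cells), a receptor gene also used outside neurons, and the neurofilament genes Nefh (4.76 CPM sorted, 0.200 CPM depleted) and Nefm (4.60 CPM sorted, 0.601 CPM depleted). Their part in the values of the 10 genes was not tested. The neuron list summed to 84.9 CPM in sorted cells, against 2.09 CPM in depleted cells, with single genes from 0 up to 75.2 CPM (sorted) and from 0 up to 1.002 CPM (depleted). Of the 6 enteric glia genes Sox10 was at 0 in both libraries. S100b had 2 counts in sorted cells, against 5 in depleted cells, and Gfap 5 (sorted) and 2 (depleted). Of the 3 glia genes that were measured 2 were called higher and 1 lower. The lower one was Erbb3, which epithelial cells also express (29.1 CPM sorted, 221 CPM depleted). The glia list summed to 42.8 CPM sorted and 223 CPM depleted. Without Erbb3 the direction was opposite, with 13.6 CPM sorted and 2.16 CPM depleted for the other 5 genes, and their part in the values of the 10 genes was not tested.

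Pancreatic islet cells express several of the 10 genes as well, and the sorted library held acinar genes (Cel at 1172 CPM in sorted cells, against 2.21 CPM in depleted cells, Rbpjl at 602 CPM sorted and 1.002 CPM depleted). The insulin genes Ins1 and Ins2 and the beta cell factor gene Mafa, named because they define the cells, had 0 counts in both libraries, and Nkx6-1 had 1 (sorted) and 0 (depleted). Iapp, which gastric endocrine cells can also express, had 13 counts (sorted) and 14 (depleted), Ppy 21 (sorted) and 0 (depleted), and Pdx1 41 (sorted) and 185 (depleted). By the call rule Iapp (3.42-fold [1.48 to 7.85]) and Ppy were higher, and Pdx1 was not called. The 7 islet genes summed to 6.24 CPM in sorted cells, against 4.43 CPM in depleted cells. The part of acinar RNA in the values of the 10 genes was not tested.

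Beyond the 10 genes, other splicing regulators enriched in neurons were mostly higher. This list and the other lists were chosen with earlier results of these data known, so their counts and medians describe the listed genes only. Of 10 listed, 6 were called higher, 0 lower, 1 was not called and 3 were not measured, and 1 of the 6 was measured through the sorted library alone. Over all measured genes, 21.9% were called higher and 21.9% lower. The median log2 ratio of the 7 measured genes was 3.29, against -0.03 over all measured genes. Celf4, a relative of Celf3, stood at 65.4 CPM in sorted cells, against 0.958 CPM in depleted cells (68.3-fold higher [50.3 to 95.2]). Khdrbs3, which encodes the splicing factor SLM2, was 6.82-fold higher [5.99 to 7.77], at 54.8 CPM sorted and 8.04 CPM depleted. Ptbp2, the neural relative of the repressor of neuronal exons Ptbp1, was 2.28-fold higher [2.01 to 2.58], at 33.9 CPM sorted and 14.9 CPM depleted. Celf2 was not called, with a ratio of 1.44 [1.30 to 1.58]. The other higher genes, named after their values were seen, were Celf6 (172.5-fold [72.9 to 536]), Msi1 (24.7-fold [19.3 to 32.0]) and Celf5 (9.76-fold [5.48 to 18.2]). Rbfox1 and Rbfox3, the neuronal relatives of Rbfox2 and also named then, had 3 and 2 counts in the sorted library and 0 and 3 in the depleted library, and Khdrbs2 had 0 in both.

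Splicing regulators of wide use showed no such shift. Of 13 listed, 0 were called higher and 2 lower (2 higher and 1 lower when scaled by library totals), and 11 were not called, with a median log2 ratio of 0.09. Among all measured genes 21.9% were higher and 21.9% lower. Srrm2, a core splicing protein related to Srrm3 and Srrm4, had a ratio of 1.82 [1.78 to 1.85], Ptbp3 1.45 [1.40 to 1.502], Mbnl2 1.51 [1.45 to 1.57] and Celf1 1.15 [1.10 to 1.19], all below 2-fold. The 2 lower genes, named after their values were seen, were the muscleblind genes Mbnl3 (8.31-fold lower [5.71 to 12.6]) and Mbnl1 (2.32-fold lower [2.15 to 2.50]). Ptbp1, also named then, had a ratio of 0.545 [0.515 to 0.576]. Ptbp2 made up 4.61% of the TPM of the PTBP family in the sorted library and 1.96% in the depleted library, so Ptbp1 and Ptbp3 were the bulk of it in both. All 3 regulators of epithelial splicing stood below 1, and 2 were called lower (1 when scaled by library totals). Rbm47 was 3.18-fold lower [2.94 to 3.44] and Esrp2 2.36-fold lower [2.21 to 2.52], while Esrp1 had a ratio of 0.525 [0.496 to 0.556]. They remained well measured in the sorted library, with 110 CPM for Esrp1, 82.3 CPM for Esrp2 and 57.9 CPM for Rbm47.

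Most genes for the partners of REST in repression were not called. Of 15 listed corepressor genes 1 was called higher (3 when scaled by library totals), 0 were called lower and 14 were not called, with a median log2 ratio of 0.31. By the same rule 21.9% of all measured genes were higher, 21.9% were lower and the rest were not called. Ehmt2, a histone methyltransferase, had a ratio of 1.11 [1.06 to 1.16], Ctbp1 1.24 [1.18 to 1.30], Rcor1, the CoREST scaffold, 0.534 [0.501 to 0.568], and Sin3b 1.40 [1.31 to 1.502]. The 1 higher gene, named after its value was seen, was Rcor2 (2.33-fold [1.51 to 3.56]), a CoREST relative, at 3.12 CPM in sorted cells, against 1.34 CPM in depleted cells.

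Genes known as REST targets were mostly higher in the sorted library. Of 26 listed, 18 were called higher, 1 lower, 1 was not called, 5 were not measured and 1 (Slc18a3) was not matched. For comparison, 21.9% of all measured genes were called higher and 21.9% lower. Of the 20 measured, 6 were measured through the sorted library alone, and the median log2 ratio was 6.14. Vgf, which encodes a secreted neuroendocrine protein, stood at 426 CPM in sorted cells, against 1.43 CPM in depleted cells (299-fold higher [234 to 389]). Snap25, a protein of vesicle fusion, was 209-fold higher [170 to 261], Unc13a, which primes vesicles, 171-fold [135 to 220.1], and Celsr3, an adhesion receptor gene, 187-fold [145 to 244]. Several of these genes also belong to the secretory machinery of endocrine cells. The 1 lower gene was L1cam, a cell adhesion gene (8.49-fold lower [6.20 to 11.9]), named after its value was seen. Stmn2, Glra1 and Neurod2, named in the same way, had 0 counts in both libraries.

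**Figure D4:**
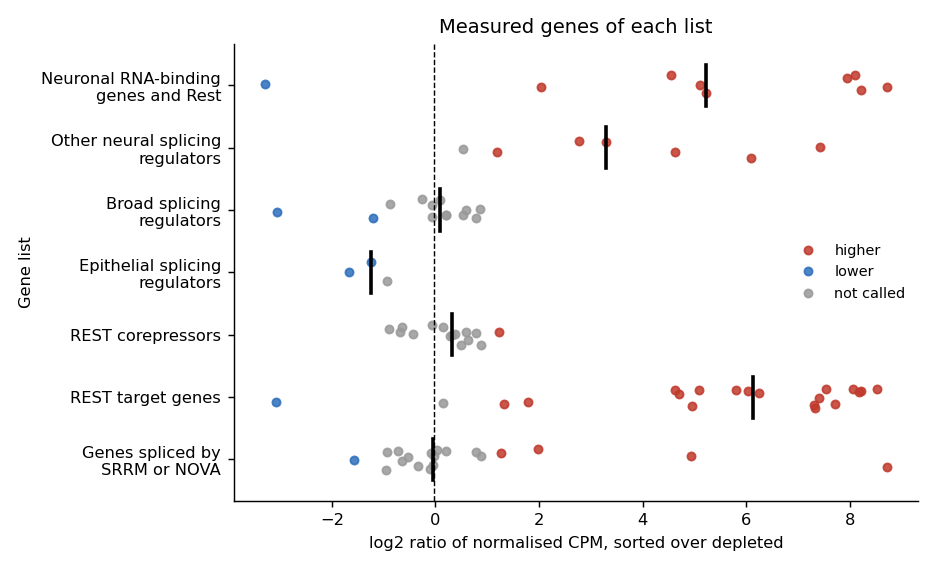
log2 ratio of normalised CPM, sorted over depleted, for the measured genes of 7 lists, marker lists not plotted (red higher, blue lower, grey not called); thick bars are list medians and the dashed line is the median of all measured genes at -0.03. The 10 genes' list, the other neural regulators and the REST targets lie mostly to the right, with medians of 5.22, 3.29 and 6.14, while the medians of the other 4 lists plotted lie between -1.24 and 0.31.

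RefSeq promoter windows (GRCm38.p6), reaching from 250 bases before to 50 bases after a gene's start, were searched for the RE1 element that REST binds. The word searched was TTCAGCACC, 2 bases of any kind and GGACAGC, on both strands, with at most 3 mismatches in its 16 fixed bases. Such a word occurred in 0.544% of the 27025 genes with a window and in 3 of the 19 REST target genes with one. Those of Celsr3 and Gria2 had 1 mismatch and that of Syn1 had 2. They are printed in the direction of the motif, with matching bases in capitals:
Syn1, chrX:20921133-20921150, - strand: TTCAGCACCgcGGtCAGa
Celsr3, chr9:108825918-108825935, + strand: TTCAGCACCgtGGgCAGC
Gria2, chr3:80802989-80803006, + strand: TTtAGCACCgcGGACAGC

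Celsr3, Gria2 and Syn1, of which the last 2 were named after their values were seen, were 187-fold, 290.4-fold [210.2 to 413] and 65.4-fold higher [45.5 to 97.2] in the sorted library. Among the 10 genes, 8 had a window in the table (Rbfox2 and Rest had none), and none of the 8 held such a word, the closest having 5 mismatches. No match says only that these letters are not in the windows searched, and RE1 elements can lie far from a start. The hexamer CAGATG, an E-box that NEUROD and NEUROG factors can bind, was searched too, on both strands. It occurred in 4 of the 8 genes (Elavl4, Srrm3, Srrm4 and Celf3) when all their 22 windows were used. The same measure gave 19.2% of all 27025 genes, which had fewer windows per gene (32851 in all). With 1 window per gene, the nearest to the M21 start, it occurred in 2 of the 8, Srrm3 and Srrm4. No share of all genes was computed in that way. The only window of Srrm3 lies 11216 bases from its M21 start. Neurod1 itself, named after its value was seen, was low, at 2.96 CPM in sorted cells, against 0.557 CPM in depleted cells. The windows of Srrm4, the gene with the largest ratio, and Celf3, the gene with the most counts, are shown because both lie at the M21 start of their gene and differ in base composition. The window of Srrm4 has 64.3% G and C and 25 CG pairs, and that of Celf3 55.0% and 4, where the median of all windows is 52.7% G and C. CAGATG is in capitals. Of these 2 windows only that of Srrm4 holds it, while 3 of the 7 windows of Celf3 hold it elsewhere:
Srrm4, chr5:116591768-116592067, - strand: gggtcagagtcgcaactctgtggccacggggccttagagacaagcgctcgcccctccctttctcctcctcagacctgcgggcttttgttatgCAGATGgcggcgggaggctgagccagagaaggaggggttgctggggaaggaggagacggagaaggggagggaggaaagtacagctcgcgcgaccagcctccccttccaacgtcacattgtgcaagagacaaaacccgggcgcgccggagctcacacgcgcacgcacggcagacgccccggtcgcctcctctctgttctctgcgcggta
Celf3, chr3:94478045-94478344, + strand: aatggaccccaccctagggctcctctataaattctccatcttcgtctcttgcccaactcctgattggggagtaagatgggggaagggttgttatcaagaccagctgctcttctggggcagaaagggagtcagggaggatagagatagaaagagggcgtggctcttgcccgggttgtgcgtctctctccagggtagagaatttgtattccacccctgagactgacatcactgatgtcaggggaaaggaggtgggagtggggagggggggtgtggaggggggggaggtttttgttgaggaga

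The genes spliced by SRRM3, SRRM4 or NOVA proteins in neurons were themselves mostly not called, as were 9381 of the 16682 measured genes. Of 19 listed genes, all measured, 4 were called higher (6 when scaled by library totals), 1 lower and 14 were not called, with a median log2 ratio of -0.05 beside -0.03 over all measured genes. The shares over all measured genes were 21.9% higher and 21.9% lower. Eif4g1, a translation initiation factor, had a ratio of 0.692 [0.673 to 0.711], Unc13b 0.980 [0.930 to 1.03] and Mef2d 1.01 [0.963 to 1.07]. Agrn, which encodes agrin, a target of NOVA, was 2.99-fold lower [2.80 to 3.2]. The 4 higher genes, named after their values were seen, were the potassium channel gene Kcnj6 (229 counts in the sorted library and 2 in the depleted library, ratio 422 [116 to 3506]), Apbb1 (30.8-fold [24.0 to 40.0]), Ptprd (3.92-fold [3.70 to 4.16]) and Zfyve27 (2.39-fold [2.23 to 2.56]). Kcnj6 was measured through the sorted library alone, so its call follows from the filter. Of the other genes whose short exons are printed above, named for those exons, Kdm1a had 93.3 CPM in sorted cells, against 50.6 CPM in depleted cells, Src 52.3 CPM sorted and 86.9 CPM depleted, Vti1a 36.1 CPM sorted and 37.3 CPM depleted, and Cpeb4 112 CPM sorted and 96.7 CPM depleted. The ratios of these 4 genes lay below 2-fold in either direction, except that Kdm1a, at 1.84, came to 2.37 when scaled by library totals and to 2.14 without the 20 most abundant genes. Which exons the transcripts carried was not measured.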

How the data were processed

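Total RNA was isolated with the RNeasy mini kit and made into libraries with the TruSeq RNA kit, per the labels' protocols. Reads were aligned with TopHat2 2.0.07 to mm9 and counted with HTSeq, per the submitters' processing notes. The HTSeq version, strand setting, annotation release and read length are not given in the sources used here. Each library has 1 deposited file, which lists the number of reads per Ensembl identifier as whole counts with no normalisation. The 5 summary rows that name no gene stayed out of totals. They held reads outside genes (9.20% in the sorted and 4.91% in the depleted file), ambiguous reads (1.45% sorted, 1.11% depleted) and non-unique alignments (24.2% sorted, 34.3% depleted).

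GENCODE M21 (GRCm38) named 32642 of 37681 identifiers. Because the counts were made on mm9, gene coordinates from M21 are not given except for printed sequences. Libraries were scaled with edgeR 4.0.16 (R 4.3.3) TMM factors over measured genes, 1.13 (sorted) and 0.882 (depleted). Ratios (sorted over depleted) have exact Clopper-Pearson 95% intervals and CPM values exact Poisson intervals, which cover counting error only. A count of 0 was set to 3 counts for the ratio, while the interval of the ratio was taken from the 0 itself. TPM used the union of M21 exons. Ratios, intervals and calls were tested on simulated Poisson counts with known ratios. That test checks the computation only, because such counts hold no variation between libraries or mice. Alternatives were library totals, DESeq2 1.42.0 size factors, upper-quartile factors, totals without the 20 most abundant genes of either library, other count filters, a stricter fold and transcript length. The rule names every one of the 10 genes, the 4 genes of each other list with the highest summed CPM, the enteric neuron and glia lists and the 3 nearest genes. The genes and lists were chosen with earlier results of these data known. In the 14 lists, 3 genes stand in 2 lists (Chat, Kdm1a and Phf21a). A few genes that the rule names are not reported here.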

Additional observations from a re-analysis of the deposited data

How the results depend on the processing

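Each group held 1 library, so counting error is the only error measured, and the sorted library, being the shallower, sets the limit for rare transcripts (0.246 CPM for 3 counts). No paired analysis was possible because each group has a single library. Scaling by library totals alone raised every log2 ratio by 0.36, and leaving out the 20 most abundant genes raised it by 0.21. The calls of the 10 genes, 8 higher and 1 lower, held under the 4 scalings, the count summed over both libraries and the stricter fold. Without a filter Elavl2 joined them as the ninth higher gene. The ratio of Celf3 was 319 under library totals, and that of Rbfox2 was 5.31 under library totals and 4.78 without the most abundant genes. With library totals, 2 of the broad splicing regulators were called higher and 1 lower, 1 of the epithelial regulators was lower and 3 of the REST corepressors were higher. Without the most abundant genes, 2 broad regulators and 2 corepressors were higher. Under the stricter fold 1 broad regulator and 0 epithelial regulators were lower, 0 corepressors were higher, and of the genes spliced by SRRM or NOVA proteins 2 were higher and 0 lower. The median log2 ratio of those spliced genes turned to 0.32 with library totals and 0.17 without the most abundant genes, and that of all genes to 0.33, 0.18 and, with upper-quartile factors, 0.0072. With the longest transcript as length, the order of the 10 genes by TPM was the same in both libraries. The TPM in the sorted library was then 596 for Celf3, 47.5 for Rbfox2, 30.4 for Srrm3 and 3.92 for Nova2, and in the depleted library 1.40 for Celf3, 6.71 for Rbfox2 and 7.18 for Rest. With that length the ELAV share was 39.4% (sorted) and 0.428% (depleted), the CELF share 86.5% (sorted) and 3.81% (depleted), and the PTBP share 8.24% (sorted) and 3.33% (depleted).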
